A study of Mus musculus with 38 samples.

Results

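Brown adipose tissue of mice kept for a long time on a high fat diet was compared with that of mice kept on a control diet. The comparison used 6 of the 38 arrays of the series, chosen by diet and week: 3 arrays of the high fat group (HFC) and 3 of the low fat control group (LFC), from Week 12, Week 15 and Week 18. Counted from the start of the diets, these weeks are days 98, 119 and 140. All mice were C57BL/6J and were put on the diets at weaning, when they were 3 to 4 weeks old. The LFC diet was a normal diet with 10% of its calories from fat, and the HFC diet was high in fat and sucrose, with 60% of its calories from fat. Neither group was given Kal-1, the herbal formulation that other groups of the series received. Each group started with 30 animals and 5 were killed every 3 weeks, but the labels do not say whether an array holds RNA of 1 animal or of a pool. There was 1 array per diet and week, so the 3 weeks stand as the replicates, and the p values measure only the spread between these arrays, which may in part be technical.

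Brown fat burns fatty acids and glucose to make heat, and it does so through Ucp1, the protein that uncouples the mitochondrial inner membrane. It also makes fatty acids from glucose (lipogenesis). In this pathway citrate is turned into acetyl-CoA by Acly, Acaca and Fasn build palmitate, Elovl6 lengthens it, and Scd1 puts in the double bond that makes oleate and palmitoleate. Dietary fat, and polyunsaturated fat above all, is known to lower the transcription of these enzymes, while in white fat long feeding of a high fat diet is known to bring in macrophages and lymphocytes.

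The array reports each gene by probes of 60 bases. The first 30 bases of 5 probes are given here, as probes behind genes on which the results turn: Scd1, Srrm2 and Zfp445, which were lower in HFC at every week, and Gpr179 and Olfr507, which were higher. All letters are in lower case, since no stretch within a probe was singled out.
Scd1: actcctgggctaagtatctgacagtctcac
Srrm2: gggagttagctccctaaattcttgggtgac
Zfp445: gttattagctatggtcctaaagtagtctca
Gpr179: accctctaaccggagtgatacaggtgctgt
Olfr507: gaaccccctaatctacagccttaggaataa
The deposited table places these genes on chromosomes 19, 17, 9, 11 and 7 in the same order. The GC content of the whole probes was 43.3% for Scd1, 40% for Srrm2, 45% for Zfp445 and Gpr179 and 41.7% for Olfr507.

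A level below is the log2 processed signal of a probe minus the 75th percentile of its array, and a difference is HFC minus LFC on that log2 scale, so 1 is 2-fold. The 6 arrays were not alike. The 75th percentile of LFC was 829 intensity units at Week 12, 197 at Week 15 and 147 at Week 18, and that of HFC was 120, 239 and 49.7. Between 48.7% and 78.8% of spots were well above background, the scanner's own call. The LFC array of Week 12 had 774 saturated spots against 7 to 43 on the other 5, and on its scaled levels the scanner ceiling was at 6.30. The median level of the negative control spots was -8.78, -6.37 and -6.22 in LFC at weeks 12, 15 and 18. In HFC it was -5.74, -7.13 and -4.71. Both arrays of a week were scanned on the same day, and each array was on its own slide. Of 10 brown adipocyte markers 9 were well above background on all 6 arrays, and Dio2 on 5. In such whole tissue, fewer cells of a type and less RNA per cell cannot be told apart.

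No gene passed the test. Of 19466 genes tested with the week as a block, 0 (0%) had a limma adjusted p under 0.05, with a lowest value of 0.0905. The unadjusted p was under 0.05 for 3239 genes, 3174 of them higher (16.3%) and 65 lower (0.334%) in HFC. The methods' t-test, which takes the 3 HFC and the 3 LFC values as unpaired, also called 0 after adjustment, and 1378 unadjusted. With 3 pairs, the smallest two-sided p that an exact sign-flip test can give for 1 gene is 0.25. Adjusted p values below are from limma over all genes tested, and "higher" and "lower" give the side on which the arrays lay, not a call.

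The differences between the diets varied from week to week. At Week 12, 7223 genes were 2-fold or more higher and 4221 lower in HFC. At Week 15 the numbers were 3397 and 571, and at Week 18 they were 4451 and 3592. The HFC and the LFC array of a week correlated across probes at 0.808, 0.964 and 0.880 at weeks 12, 15 and 18, and the differences of single weeks correlated across genes at 0.34 to 0.59. Genes are not independent replicates. The side of the difference was the same at all 3 weeks for 4456 genes higher (22.9%) and 3964 lower (20.4%). With the 2-fold limit at every week, 2134 genes were higher (11%) and 13 were lower (0.0668%).

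Scd1, the desaturase, was the lipogenic gene that was lower by 2-fold or more at every week. Its level in LFC was 6.30, 5.55 and 5.62 at weeks 12, 15 and 18, and in HFC it was 4.23, 2.76 and 3.77. The lowest LFC array lay above the highest HFC array. The difference was -2.08, -2.79 and -1.85 at the 3 weeks, with a mean of -2.24 ± 0.47 (limma SE, n = 3 weeks) and a limma adjusted p of 0.0935. The LFC spot of Week 12 was saturated, so the Week 12 difference is a lower limit of its size. Without Week 12 the mean was -2.32 and the limma adjusted p 0.00082, in a fit with 1 residual degree of freedom. Among the lower genes called in that fit the adjusted p followed the size of the mean. Alb, the albumin gene, with 0.42 at Week 15 and -6.59 at Week 18, had a limma adjusted p of 4.1e-06 there. The 0.00082 of Scd1 is thus no measure of how well the weeks agreed. Without Week 15 the mean of Scd1 was -1.96 with an adjusted p of 0.372, and without Week 18 it was -2.43 with 0.372. The adjusted p was 0.385 with quantile normalization and 0.784 with normexp background correction, where the means were -2.16 and -2.15. The lower level was not limited to the late weeks: over the whole series HFC was the lower diet at 9 of 10 time points, the exception being Day 10, where it was higher by 0.59. The mean difference of Scd1 was -1.61 at weeks 3 to 9 and -2.28 over the first 2 weeks.

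**Figure D1:**
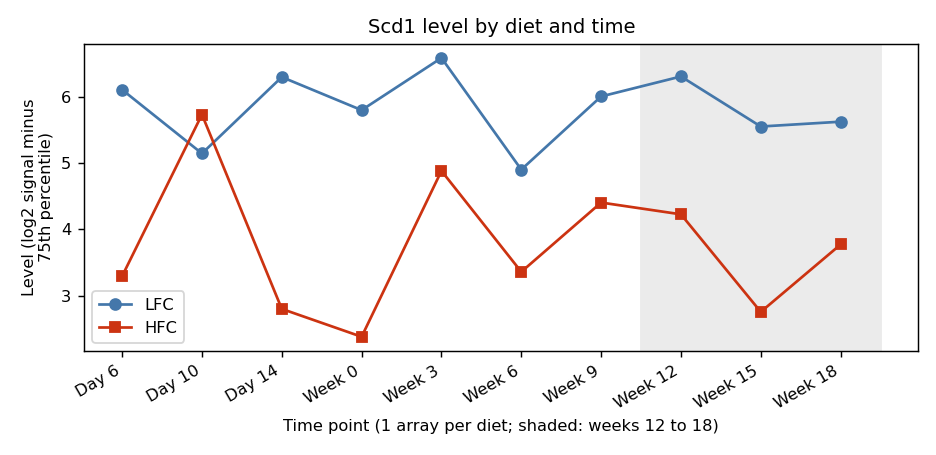
Level of Scd1 (y axis, log2 signal minus the array's 75th percentile) at the 10 time points (x axis), with 1 array per diet and no error bars. HFC (red squares) lies below LFC (blue circles) at 9 of 10 time points and at all 3 of the shaded weeks 12 to 18, where it runs from 2.76 to 4.23 against 5.55 to 6.30.

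Of the 13 genes lower by 2-fold or more at every week, Scd1 included, 4 were well above background on all 6 arrays. Beside Scd1, only Srrm2 and Zfp445 had a gene name other than a clone, LOC, Gm or Rik name, and met this limit, and neither was saturated on any array. Srrm2, a large protein of the spliceosome, was at 3.45, 3.27 and 3.60 in LFC and at 1.78, 2.12 and 1.93 in HFC. The groups did not overlap, and the mean difference was -1.50 ± 0.45 (limma SE, adjusted p 0.157). Zfp445, a zinc finger protein that acts on imprinted genes, was at -0.02, 0.03 and -0.09 in LFC and at -1.53, -1.18 and -1.24 in HFC. Its mean difference was -1.29 ± 0.44 (limma SE, adjusted p 0.211), the groups did not overlap, and 2 of its 3 probes were lower. Both genes had been near 0 at weeks 3 to 9, with differences of -0.15 for Srrm2 and 0.33 for Zfp445, and the limma adjusted p of the change between the periods was 0.20 and 0.32.

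Golga7b was well above background on all 3 LFC arrays and on none of the HFC arrays. Its level in LFC was -0.50, -2.93 and -2.94, and the HFC arrays gave -3.96, -6.64 and -4.63. Set against the lowest signal that counts as well above background on each array, or the probe's own signal where that was higher, the HFC level was lower by at least 3.07-fold (limma adjusted p 0.0905). By the same rule Cdc25a, the phosphatase that drives cells into S phase, was at least 1.21-fold lower (limma adjusted p 0.141), but with normexp background correction its mean difference was 0.24, on the higher side. Gramd1c and Shb, an adaptor of receptor signalling, were lower by 1.28 and 1.50 in the mean, and HFC was well above background on 2 arrays for Gramd1c and on 1 for Shb. With normexp Shb, Fam159b and Gm4349 also turned, to 0.23, 0.32 and 0.21. The remaining 6 were Fam159b, Gm4349, Gm9112, LOC677051, 1700011M02Rik and 1700018G05Rik. Golga7b, Gm9112, LOC677051, 1700011M02Rik and 1700018G05Rik were also lower earlier. Their mean differences were -3.95, -4.61, -3.60, -3.97 and -5.15 at weeks 3 to 9. Over the first 2 weeks they were -1.70, -3.64, -3.70, -3.25 and -3.36. Cdc25a, Fam159b, Gm4349, Gramd1c and Shb lay between -1.16 and 0.71 at weeks 3 to 9.

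**Figure D2:**
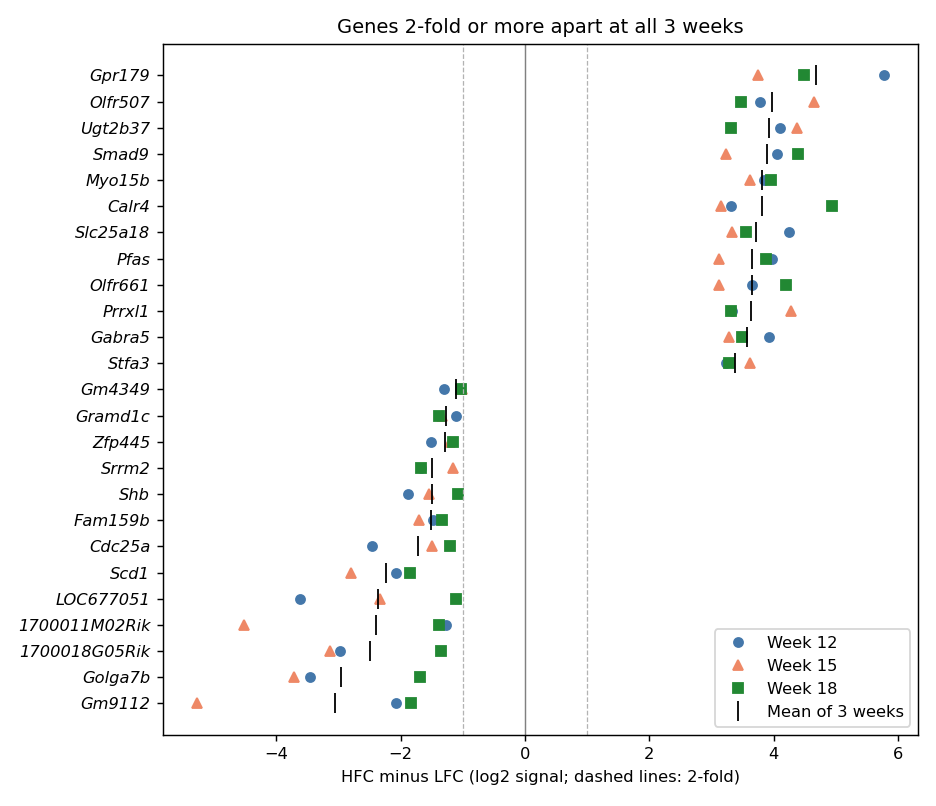
Difference between HFC and LFC (x axis, log2 signal) at Week 12, Week 15 and Week 18 for the 12 named genes that were higher and the 13 that were lower by 2-fold or more at all 3 weeks, with the mean as a black tick and 2-fold as dashed lines. Gpr179 stands highest with a mean of 4.67, and Scd1 with -2.24 is the lipogenic gene among the lower ones.

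The lipogenic list was, in the median, lower in HFC at Week 12 and not at Week 18. The median difference of the 26 lipogenic genes tested of 29 listed was -2.83 at Week 12, -0.41 at Week 15 and 0.36 at Week 18, beside 0.19, 0.02 and -0.24 over all genes tested. At all 3 weeks 7 of the 26 were lower, among them Srebf1, the transcription factor that drives the pathway, and 2 were higher. Over all genes tested 20.4% were lower at all 3 weeks. All 26 were well above background on all 6 arrays, however. Of the 13460 genes that met this limit 3545 were lower at all 3 weeks, a share near 7 of 26. Elovl6 was at 6.14, 1.64 and 1.36 in LFC and at 0.83, -0.11 and 0.92 in HFC, a mean difference of -2.50 ± 0.97 (limma SE, adjusted p 0.280). Much of that mean came from the high LFC level at Week 12, since the difference was -5.31 there, -1.75 at Week 15 and -0.44 at Week 18. Acaca, which makes malonyl-CoA, had differences of -5.04, -1.27 and -0.25, but its 4 probes ranged from -2.19 to 1.55 in the mean and only 2 were lower. Me1, which makes NADPH, had differences of -3.79, -1.41 and -0.00. Acly, the first step from citrate, went from -3.57 to -1.39 and 0.44. Fasn, the fatty acid synthase, had differences of 0.74, -0.78 and 0.55, of which the first is an upper limit because the LFC spot of Week 12 was saturated, and its second probe had a mean of -1.61. Of the 26 genes 7 were saturated on at least 1 of the 6 arrays. The list median, -0.90 over the 3 weeks, was -0.11 without Week 12. In fits of all 20 arrays of both diets it was -0.03 with the brightness class of the array in the model, -0.08 with its 75th percentile as a covariate and 0.43 with its median olfactory receptor level as a covariate.

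Of the enzymes that supply the glycerol backbone of triglycerides, Gpd1, Pck1 and Gyk read higher in HFC at each of the 3 weeks, and none passed the test. They were taken from the lipogenic list and from that of lipid droplets, which had members on both sides. Gpd1, which makes glycerol 3-phosphate, was at 6.30, 6.26 and 5.60 in LFC and at 7.98, 6.89 and 8.0 in HFC. The mean difference was 1.57 ± 0.53 (limma SE, adjusted p 0.209), and the groups did not overlap, but the mean of its second probe was 0.00. Pck1, the key enzyme of glyceroneogenesis, was at 6.30, 4.81 and 4.68 in LFC and at 7.07, 6.13 and 6.79 in HFC, a mean difference of 1.40 ± 0.49 (limma SE, adjusted p 0.226). Both LFC spots were saturated at Week 12 and lay at the scanner ceiling, so their differences at that week are upper limits. The side of both genes at Week 12, and the lack of overlap for Gpd1, are thus not established. Gyk, glycerol kinase, was higher by 0.22, 1.45 and 1.92. Of the 14 genes of lipid droplets and lipolysis tested, 2 were higher and 3 lower at all 3 weeks, beside 22.9% and 20.4% of all genes, and Lipe, the hormone-sensitive lipase, was among the lower ones with -1.99, -0.10 and -0.80.

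Genes of cholesterol synthesis lay lower in HFC, mainly at Week 12. Of 25 tested, 10 were lower at all 3 weeks, beside 20.4% of all genes, and 1 was higher at all 3, with a median difference of -0.66 beside -0.08 over all genes. The median was -1.57 at Week 12, -0.20 at Week 15 and -0.19 at Week 18, so the medians of the later weeks were far from 2-fold. Insig1, which holds back the SREBP proteins, was lower by -1.45, -1.02 and -0.57. Sqle, which oxidises squalene, and Lss, which closes it into lanosterol, had mean differences of -1.19 and -1.17, but the second probe of Lss was at 0.46. The list median was -0.13 without Week 12. With the brightness class, the 75th percentile or the olfactory receptor level in a fit of all 20 arrays it was -0.16, -0.19 and 0.13. No member had a limma adjusted p under 0.05. Of the 25, 17 were well above background on all 6 arrays, 5 of them lower at all weeks. Of all 13460 genes that met this limit, 3545 were lower at all weeks, a share near that of these 17.

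**Figure D3:**
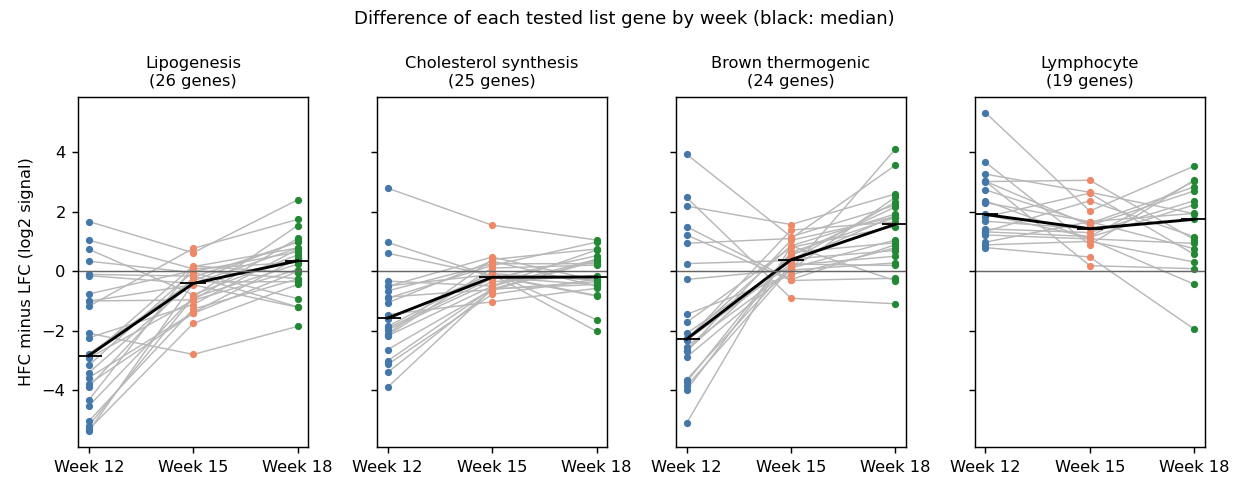
Difference between HFC and LFC (y axis, log2 signal) of each tested gene of 4 lists at the 3 weeks (x axis), with lines joining a gene and the list median in black. The medians of the lipogenic and brown thermogenic lists run from -2.83 to 0.36 and from -2.28 to 1.59 between Week 12 and Week 18, that of cholesterol synthesis from -1.57 to -0.19, and the lymphocyte median stays between 1.43 and 1.91.

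Ucp1 was higher in HFC at each of the late weeks. Its level in LFC was 6.06, 4.93 and 3.39, and in HFC it was 7.01, 6.04 and 6.95. Each HFC array lay above the LFC array of its week, but HFC at Week 15 was below LFC at Week 12, so the groups overlapped. The difference was 0.95, 1.11 and 3.57, with a mean of 1.87 ± 0.67 (limma SE, adjusted p 0.233), and both Ucp1 probes were higher. Dio2, which makes the active thyroid hormone within brown fat, was at -3.45, -2.92 and -4.20 in LFC and at -1.26, -1.34 and -1.60 in HFC. The groups did not overlap, the mean difference was 2.12 ± 0.47 (limma SE, adjusted p 0.0981), and LFC was well above background on 2 of its 3 arrays. Esrrg, a nuclear receptor of oxidative genes, had differences of 3.94, 1.17 and 2.23 and a limma adjusted p of 0.125, and the mean of its second probe was 0.31.

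The brown thermogenic list as a whole did not follow these genes at Week 12. Of 24 tested, 4 read higher at all 3 weeks and 0 lower, beside 22.9% and 20.4% of all genes. The fourth of these, after Ucp1, Dio2 and Esrrg, was Cox7a1, a muscle and brown fat subunit of cytochrome oxidase, with 0.26, 0.37 and 2.33. Its LFC spot at Week 12 was saturated, so its side at that week is not established. The list median was -2.28 at Week 12, 0.39 at Week 15 and 1.59 at Week 18. With the olfactory receptor level as a covariate in the fit of 20 arrays it was 1.78, beside -0.04 over all genes tested. A higher fitted mean was found for 20 of the 24, beside 9479 of all 19466 genes. Adrb3, the receptor for noradrenaline on fat cells, had differences of -3.72, 0.64 and 0.96. Ppargc1a, the coactivator of mitochondrial genes, had -1.71, 0.81 and 1.51. The same course was seen in the 33 genes of fatty acid oxidation, with medians of -1.54, 0.28 and 1.25, and in the 45 of mitochondrial respiration, with -1.39, -0.04 and 0.98. In the latter list 33 genes were saturated on at least 1 array, and 1 gene was higher and 0 lower at all 3 weeks. The median of 16 skeletal muscle genes also went from -1.73 over 0.18 to 1.82. Muscle shares many of these oxidative genes with brown fat, and its part in the differences of these oxidative lists was not tested. With the skeletal muscle list as a covariate in the fit of 20 arrays, the lipogenic median was -0.90 and that of cholesterol synthesis -0.66.

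Marker genes of lymphocytes were higher in HFC at nearly every week. Of 19 tested of 22 listed, 17 were higher at all 3 weeks and 0 lower, and 11 were 2-fold or more higher at every week, beside 22.9% and 11% of all genes. Cd3e, a chain of the T cell receptor complex, was at -4.61, -3.86 and -1.92 in LFC and at -1.58, -2.31 and 0.78 in HFC. HFC lay above LFC within each week, though the groups overlapped, and the mean difference was 2.43 ± 0.51 (limma SE, adjusted p 0.0935). Cd8b1, a chain of the coreceptor of cytotoxic T cells, was at -5.71, -5.29 and -2.82 in LFC and at -2.44, -2.63 and -0.88 in HFC. Here the groups did not overlap, LFC was well above background on 2 of its 3 arrays, and the mean difference was 2.62 ± 0.49 (limma SE, adjusted p 0.0905). Prf1, the pore-forming protein of killer cells, had a mean difference of 3.64 with a limma adjusted p of 0.0905. Lck, the kinase of the T cell receptor, did not follow, with 0.80, 0.48 and -1.94. Ptprc, the CD45 antigen of all leukocytes, was higher by 0.98, 1.67 and 0.76. The list median was also above 0 earlier, with 0.62 at weeks 3 to 9 and 0.92 over the first 2 weeks. At the single weeks 3, 6 and 9 it was -0.01, -0.35 and 2.06.

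Most of these lymphocyte probes were dim. Only 5 of the 19 were well above background on all 6 arrays, and all 5 were higher at each week, 2 of them by 2-fold or more, beside 13.9% and 4.93% of the 13460 genes that met this limit. The median difference of the list was 1.70 and moved to 0.78 with quantile normalization and to 0.58 with normexp background correction. Probes for genes that fat should not use moved the same way, as given below for olfactory receptors. With the median olfactory receptor level of each array as a covariate in a fit of all 20 LFC and HFC arrays, the lymphocyte median was 1.01 and 16 of 19 genes had a higher fitted mean. Over all 19466 genes tested the median of that fit was -0.04, and 9479 had a higher fitted mean.

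Macrophage genes gave no common direction. Of 28 tested, 7 were higher and 4 lower at all 3 weeks, beside 22.9% and 20.4% of all genes, and the list median was -0.11, 0.33 and 0.34. The brightest probes of the defining markers had mean differences of -0.26 for Emr1, a surface marker, 0.16 for Cd68 and 0.17 for Csf1r, the receptor for the macrophage growth factor, each smaller than its SE. Other probes reached 1.83 for Emr1 and 2.60 for Csf1r. The genes that were 2-fold or more higher at every week were 4 of 28 (14.3%), beside 11% of all genes, and were Ccl2, Ccl3, Il1b and Spp1. Ccl2, which draws monocytes, was at -1.18, 2.94 and -1.15 in LFC and at 1.15, 4.28 and 0.76 in HFC. The groups overlapped because both arrays of Week 15 were high, and the mean difference was 1.86 ± 0.47 (limma SE, adjusted p 0.114). Spp1, osteopontin, was higher by 1.88, 1.76 and 1.50 (limma adjusted p 0.117). Il1b, the interleukin 1 beta gene, was higher by 7.08, 1.82 and 2.45 and Ccl3, another chemokine, by 5.01, 1.20 and 2.90, with limma adjusted p values of 0.144 and 0.120. With the olfactory receptor level as a covariate in the fit of 20 arrays, the mean differences of Il1b and Ccl3 were -0.07 and -0.06, and those of Ccl2 and Spp1 were 1.72 and 2.06.

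**Figure D4:**
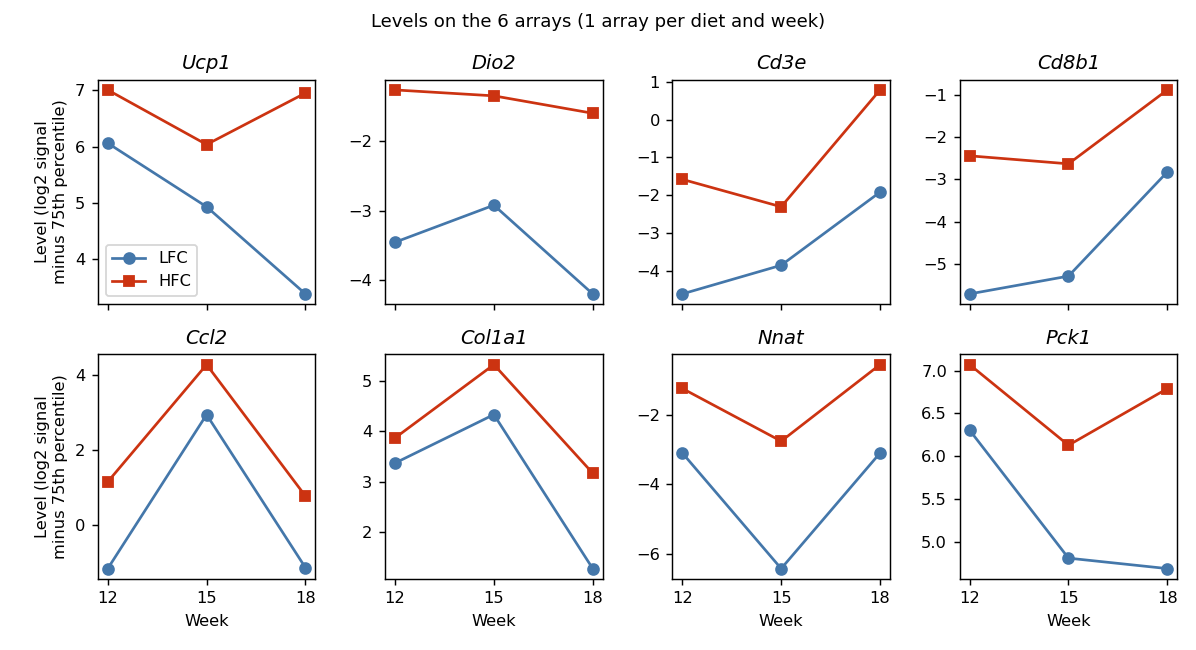
Levels (y axes, log2 signal minus the array's 75th percentile) of 8 genes on the 6 arrays at weeks 12, 15 and 18 (x axes), with HFC as red squares and LFC as blue circles. HFC reads above LFC at each week in all 8 genes, and in Ccl2 and Col1a1 both diets are highest at Week 15. The LFC spot of Pck1 at Week 12 was saturated, so its side at that week is not established.

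Among markers of white adipocytes Nnat, a membrane protein of the endoplasmic reticulum, was 2-fold or more higher in HFC at every week. It was at -3.10, -6.42 and -3.10 in LFC and at -1.25, -2.76 and -0.56 in HFC. The groups did not overlap, and the mean difference was 2.68 ± 0.54 (limma SE, adjusted p 0.0905), with 2 LFC arrays well above background. Sfrp5, a secreted inhibitor of Wnt signals, was higher by 3.17, 1.03 and 1.68. The list of 16 had 2 higher and 3 lower at all 3 weeks, shares no larger than the 22.9% and 20.4% of all genes, and its median went from -1.43 to 0.10 and 0.24.

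Of genes of the unfolded protein and integrated stress responses, 9 of 23 tested were lower and 1 was higher at all 3 weeks. Over all genes these shares were 20.4% and 22.9%. Of the 13460 genes well above background on all 6 arrays 3545 were lower and 1874 higher, and 22 of the 23 met this limit. Xbp1, a transcription factor of the unfolded protein response, was lower by -0.62, -0.37 and -2.03, and Asns, which makes asparagine, by -2.63, -0.19 and -0.65. The list median was -0.26 beside -0.08 over all genes. Genes of insulin and IGF signalling had 6 of 18 lower and 1 higher at all weeks. Insr, the insulin receptor, was lower by -2.59, -0.26 and -1.29, but its second probe had a mean of 1.28, and Igfbp2, a binding protein of the growth factors, was higher by 2.16, 1.76 and 1.13. Of 19 antioxidant genes 6 were lower and 0 higher at all weeks, with Gclc, the limiting enzyme of glutathione synthesis, at -0.49, -0.58 and -1.04. None of these genes had a limma adjusted p under 0.05.

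The 2134 genes that were 2-fold or more higher at every week were mostly dim. Their median level was -4.55 in LFC and -1.86 in HFC, against -0.60 and -0.52 over all genes tested, and 663 of them were well above background on all 6 arrays. Ordered by mean level, the dimmest of 5 equal bins of genes had median differences of 2.57, 0.96 and 1.02 at the 3 weeks, and 31.2% of its genes were 2-fold or more higher at every week. In the brightest bin the medians were -0.40, -0.14 and -0.43, and 0.334% were higher in this way. The GC content of the probe moved along too: 3.85% of genes with a probe of 35% GC or less and 16.0% of those above 55% were 2-fold or more higher at every week.

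**Figure D5:**
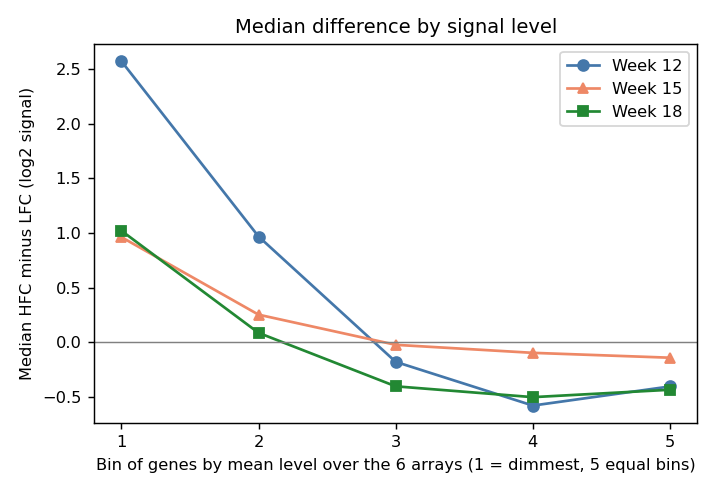
Median difference between HFC and LFC (y axis, log2 signal) in 5 equal bins of the tested genes by mean level over the 6 arrays (x axis, from the dimmest to the brightest), with 1 line per week. The dimmest bin lies between 0.96 and 2.57 and the brightest between -0.43 and -0.14.

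Olfactory receptors, the odour sensors of the nose and a family with little known use in fat, made up 190 of these 2134 genes. Of 1067 on the array 301 were tested, and 257 of these were higher at all 3 weeks, 190 of them (63.1% of those tested) by 2-fold or more, beside 22.9% and 11% of all genes. The median level of these 301 was -5.78, -4.96 and -2.83 in LFC and -2.47, -3.17 and -0.78 in HFC. Within each week HFC was higher, and the highest LFC array lay between the HFC arrays. The negative control spots also read higher in HFC at weeks 12 and 18, and lower at Week 15. Their part in the differences of dim genes was not tested. Olfr507 was at -4.16, -3.85 and -2.22 in LFC and at -0.38, 0.81 and 1.25 in HFC. Its groups did not overlap, and the mean difference was 3.97 ± 0.48 (limma SE, adjusted p 0.0905). Over weeks 3 to 9 the median difference of the family was 0.02, but this period was not flat. Its weekly medians rose from -0.92 (Week 3) over -0.02 (Week 6) to 1.03 (Week 9). The 301 genes were also selected on the 6 late arrays, which may favour the late weeks in this comparison. Since a gene enters the test when 3 of the 6 arrays show it well above background, a dim gene could enter through the HFC arrays alone. Over all 1067 the medians were 3.76, 0.04 and 1.53, and over the 71 that were well above background on all 6 arrays they were 3.19, 1.44 and 2.85. Trace amine and vomeronasal receptors, beta-defensins and keratin-associated proteins, which are also genes of nose, skin or glands, had medians of 3.03 over 4 genes tested, 2.02 over 45, 1.96 over 10 and 1.50 over 18. These 5 families were picked after their values were seen.

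The named genes with the largest smallest weekly difference were of mixed roles. Gpr179, an orphan receptor known from the retina, was at -5.89, -3.80 and -1.36 in LFC and at -0.11, -0.04 and 3.14 in HFC. The groups did not overlap, and the mean difference was 4.67 ± 0.56 (limma SE, adjusted p 0.0905), with 1.74 in its second probe. Pfas, an enzyme of purine synthesis, was among the brighter ones, at -1.61, 0.91 and 2.22 in LFC and at 2.36, 4.02 and 6.10 in HFC, a mean difference of 3.65 ± 0.46 (limma SE, adjusted p 0.0905), and its second probe had a mean of 1.02. The other 9 beside Olfr507 were Calr4, Gabra5, Myo15b, Olfr661, Prrxl1, Slc25a18, Smad9, Stfa3 and Ugt2b37. Their mean differences ran from 3.38 for Stfa3 to 3.93 for Ugt2b37, each with a limma adjusted p of 0.0905. Gabra5 is a subunit of the GABA receptor, Smad9 a mediator of BMP signals, Slc25a18 a mitochondrial glutamate carrier and Ugt2b37 a glucuronidating enzyme.

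Of genes well above background on all 3 HFC arrays and no LFC array, the first 5 by the same order were Atp6v1b1, Olfr617, Fam164b, Itih2 and Dnase1. Atp6v1b1, a subunit of the proton pump of kidney and ear, was at least 13.8-fold higher in HFC. The bounds of the others were 10.2-fold for Olfr617, 8.91-fold for Fam164b, 6.24-fold for Itih2 and 5.77-fold for Dnase1. Each had a limma adjusted p of 0.0905. The smallest p values of the fit belonged to Btnl7, LOC630976 and LOC675004, all higher in HFC, and LFC was well above background on 1 array for Btnl7 and on none for the other two.

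How the values were corrected decided how many of these genes stood out. With quantile normalization 767 genes were 2-fold or more higher at every week, with dim signals raised to the background limit 1232, and with normexp background correction 13. On the lower side there were 158, 4 and 1. The normexp values carry an offset of 50 intensity units, beside array 75th percentiles of 49.7 to 829. This narrows the differences of dim genes by design. Under the 75th percentile scale and these 3 alternatives together, 12 genes were higher and 1 lower. The lower one was Scd1. The 12 were Commd9, Dirc2, Il1b, Lcn6, Pfas, Rpl21, Ugt2b37, Gm12690, Gm7877, Gm8098, LOC100045919 and LOC675403, named here after their values were seen. Dirc2, a transporter of the lysosome membrane, was at 1.23, 2.08 and 2.09 in LFC and at 3.23, 5.29 and 4.41 in HFC. The groups did not overlap, and the mean difference was 2.51 ± 0.48 (limma SE, adjusted p 0.0905), but its second probe had a mean of -0.56. Lcn6, a lipocalin known from the epididymis, was at -1.55, -1.34 and -0.06 in LFC and at -0.03, 2.45 and 2.78 in HFC, a mean difference of 2.72 ± 0.59 (limma SE, adjusted p 0.0962). Commd9, which takes part in sorting from endosomes, was at 0.43, 1.25 and 1.84 in LFC and at 2.65, 2.96 and 3.30 in HFC, a mean difference of 1.80 ± 0.45 (limma SE, adjusted p 0.115).

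The diet difference of the late weeks was also set against those of the earlier time points, in fits of all 20 arrays of both diets, blocked by time point. Against weeks 3 to 9, 0 genes had a limma adjusted p under 0.05, with 2200 at an unadjusted p under 0.05 and a smallest adjusted p of 0.0892. Against the first 2 weeks it was also 0, with 2936 unadjusted and a smallest adjusted p of 0.0729. The smallest p values were those of ENSMUST00000103498, Gm9216 and Ptprt against weeks 3 to 9 and of Gm6280, Gm9216 and Odz2 against the first 2 weeks. Ptprt, a receptor phosphatase known from the brain, was at -4.77, -5.94 and -2.66 in LFC and at -2.50, -3.44 and -0.41 in HFC, with overlapping groups.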

How the data were processed

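Total RNA of brown adipose tissue was labelled with Cy3 and hybridised to 1-colour Agilent arrays. The deposited scanner files give each spot in intensity units, and the authors' processed signal in them was corrected for background by Feature Extraction 10.5.1.1 per the file headers, while the submitters' processing notes name version 9.1. The authors also deposited a table of log2 values relative to the LFC array of each time point, used as an alternative. Its Week 15 HFC column correlated with the scanner values at -0.0048 by probe name and at 0.993 in spot order (0.999 to 1.000 at the other weeks). No sample column was unmapped (0). Depth does not apply to arrays, and 6 arrays limit the precision.

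Each array's log2 signal was centred on its 75th percentile. The probe with the highest mean stood for its gene name, and 19466 of 29411 names were tested, those that the scanner called well above background on 3 or more of the 6 arrays, less 28 that lacked a value. limma 3.58.1 in R 4.3.3 was fitted with lmFit and eBayes, with the week as a block, two-sided and with Benjamini-Hochberg adjustment over all genes tested. List members were described by counts and medians, with no test. The weeks pair the arrays by label and scan day. The arrays compared and the 23 gene lists were chosen with earlier results of these data known, and the olfactory receptor covariate was added after seeing the data.

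Where fewer than 20 genes passed, the rule named up to 12 genes a direction with the largest smallest weekly difference among those well above background on all 6 arrays, never saturated, 2-fold or more apart the same way at all 3 weeks and with a gene name proper, up to 5 a direction given as bounds, the 3 smallest p values of each fit, and core and some further members of the lists, of which the text gives a part. Only 2 lower genes met it, so all 13 lower ones are given. Alternatives were quantile normalization, normexp (offset 50), a floor at background, the deposited table, other filters on dim probes, every probe tested, array weights, no block, the methods' t-test, leaving out each week, and fits of all 20 LFC and HFC arrays with a pooled spread or with array brightness or the skeletal muscle list in the model. All steps were tested on simulated data. Of 492 list genes 491 were on the array. No coordinates are printed, since the array and the reference differ in build. Some list members that the rule selects are not reported here.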

Additional observations from a re-analysis of the deposited data

Results flagged for a closer look

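The 3 fibrillar collagen genes of the matrix list stood on opposite sides of the diet comparison in the late and the middle weeks. Col1a1 was higher in HFC at each of the late weeks, by 0.50, 0.99 and 1.89 with a mean of 1.12 ± 0.50 (limma SE), and its mean difference at weeks 3 to 9 was -0.63, with HFC lower at each of those weeks. The mean difference of Col1a2 was 0.93 at the late weeks and -0.62 at weeks 3 to 9, and that of Col3a1 was 0.91 and -0.45. In a limma fit of the 20 LFC and HFC arrays the change between the periods had an adjusted p of 0.551 for Col1a1, 0.545 for Col1a2 and 0.449 for Col3a1, so it did not pass the test. Of the 25 matrix genes 6 were higher and 0 lower at all 3 late weeks, beside 22.9% and 20.4% of all genes, and the list median was 0.24, 0.67 and 0.33.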

How the results depend on the processing

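The number of genes past the limma adjusted threshold was 0 and ran from 0 to 2647 when 1 week was left out. The 2647 came without Week 12, which leaves 1 residual degree of freedom, and were 2478 higher and 169 lower in HFC. Among the 169 the adjusted p followed the size of the mean, so it does not measure agreement between the weeks. The number of genes past the threshold was 2137 with array weights, 1157 in the fit of 20 arrays with a pooled spread, 1283 with the brightness class, 630 with the 75th percentile and 641 with the muscle list as a covariate, and 0 with the olfactory receptor covariate. With no replicate block, so without the pairing by week, it was also 0, with 2107 genes at an unadjusted p under 0.05. The late weeks against weeks 3 to 9 gave 512 genes with array weights, 699 with the brightness class and 815 with the 75th percentile, and against the first 2 weeks 1457, 1269 and 104. The 2134 genes 2-fold or more higher at every week became 767 with quantile normalization, 13 with normexp, 1232 with the floor, 521 in the deposited table as it stands, 663 with all 6 arrays well above background and 2511 to 3214 without 1 week, the highest without Week 15. The 13 lower ones became 158, 1 and 4 under the first 3 of these, 4 with all 6 arrays well above background, 24 with every probe tested and 58 to 444 without 1 week (171 without Week 12, 444 without Week 15, 58 without Week 18). The lymphocyte median of 1.70 became 0.78 with quantile normalization, 0.58 with normexp, 1.35 in the deposited table, 1.14 with all 6 arrays well above background, 1.42 with the brightness class, 1.15 with the 75th percentile and 1.01 with the olfactory receptor covariate. The olfactory receptor median of 2.42 became 1.28, 0.83 and 1.57 with quantile normalization, normexp and that covariate. With normexp Cdc25a turned to 0.24, Shb to 0.23, Fam159b to 0.32 and Gm4349 to 0.21. With the Week 15 column of the deposited table put in spot order, 2220 genes were 2-fold or more higher and 12 lower at every week. The lymphocyte median of that setting was 1.74. The causes were not tested beyond this column order and the smaller number of genes or weeks in some settings. Signal over background limits all values of dim genes. The slide as a block could not be fitted, since each array had its own slide.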

Other observations

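Immediate early and heat shock genes differed most between the diets, in the median, at Week 12. The median difference of 13 immediate early genes was 3.92 at Week 12, 0.11 at Week 15 and -1.44 at Week 18. That of 11 heat shock genes was 1.42, -0.64 and -0.81. Genes of the unfolded protein and integrated stress responses differed least at Week 12, with medians of -0.03, -0.19 and -0.70. Fos, a subunit of AP-1, was at -3.34, 5.53 and 4.54 in LFC and at 4.24, 6.13 and 3.42 in HFC. Hspa1a, an inducible heat shock protein whose probe may also read its near copy Hspa1b, was at -0.83, 8.34 and 8.77 in LFC and at 7.74, 8.09 and 7.96 in HFC. In both genes the LFC array of Week 12 was far below the other 5. The same week held the highest medians of 17 interferon response genes, with 1.73, -0.54 and -0.29, of 13 endothelial genes, with 2.03, -0.27 and -1.18, and of 6 erythroid genes, with 2.63, -0.17 and 0.43. Lepr, the leptin receptor, was at -4.42, 2.48 and 1.90 in LFC and at 0.40, -1.40 and -0.25 in HFC, so that HFC was higher at Week 12 and lower at the later weeks, while its second probe was higher in the mean. Alb, the albumin of the liver, was at 1.87 in LFC at Week 18, and on the other 5 arrays it lay between -4.72 and -2.43. Lepr and Alb were chosen after their values were seen, and none of these genes had a limma adjusted p under 0.05 in the fit of all 3 weeks.

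Genes of glucose use, antigen presentation, the clock and the cell cycle were counted beside the 22.9% of all genes that were higher and the 20.4% that were lower at all 3 weeks. There were 1 higher and 2 lower of 26 for glucose use, 5 and 3 of 14 for antigen presentation, 2 and 3 of 17 for the clock and 2 and 2 of 16 for the cell cycle. Bub1, of the spindle checkpoint, was 2-fold or more higher at every week, with a mean difference of 2.82.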
